A study of Mus musculus with 12 samples.

Results

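Matrix metalloproteinases and their tissue inhibitors were followed in TM3 cells treated with methoxyacetic acid (MAA), the toxic metabolite of the solvent ethylene glycol monomethyl ether. The genes were 7 metalloproteinases (Mmp2, Mmp3, Mmp9, Mmp10, Mmp11, Mmp13 and Mmp14) and 3 inhibitors (Timp1, Timp2 and Timp3), that is 10 of 15980 named genes, measured by 14 of 41174 probes. The family was chosen by the log2 ratios of Mmp3, which had opposite signs at the 2 MAA concentrations. The values of Mmp3 are therefore a description and carry no test, and a test is given only for the other 9 genes.

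TM3 is an established mouse Leydig cell line that was derived from the testis of immature animals, so each value describes 1 line in culture. Cells were kept in medium with horse and fetal bovine serum, either alone (untreated control) or with MAA added at 1 mM or at 5 mM, and were harvested after 3, 8 or 24 h. Each of the 6 treatments was compared with untreated cells of the same time on 2 two-colour arrays, and each RNA was a pool of 3 cultures. The labels name a single untreated condition for each time, and whether the same control pools served both concentrations is not given in the sources used here. The responses to 1 mM and 5 mM MAA may therefore not be independent of each other. The tests of their differences nevertheless treated all arrays as independent. The dyes were exchanged between the arrays of a pair, so that RNA of treated cells carried the green dye on replicate 1 and the red dye on replicate 2. Because pools were compared, the spread between replicates understates the spread between cultures, and fewer cells of a type cannot be told apart from less RNA per cell.

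The pairs of arrays agreed better at 5 mM, where the correlation over all probes was 0.50 at 3 h, 0.63 at 8 h and 0.64 at 24 h, than at 1 mM, where it was -0.13, 0.13 and 0.31. Over probes well above background on the pair it was 0.69, 0.83 and 0.84 at 5 mM and 0.15, 0.36 and 0.60 at 1 mM. Of 9 Leydig cell markers, 3 (Cyp17a1, Star and Insl3) were well above background in both channels of all 12 arrays, while Lhcgr, the luteinizing hormone receptor, and Hsd3b6 were not on any. Of 5 fibroblast markers, 4 were well above background on all 12 arrays, and of 5 macrophage markers with a probe only Cd14 was. The macrophage markers Ptprc, Itgam and Cd163 were not well above background in either channel of any array.

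Metalloproteinases are zinc-dependent enzymes, most of them secreted as inactive proenzymes, that cut proteins of the extracellular matrix as well as growth factors and their binding proteins. TIMPs bind the active site of the mature enzymes and block it, so the balance between the groups sets how fast matrix is turned over. Mmp3 and Mmp10 are the stromelysins, Mmp13 is a collagenase, Mmp2 and Mmp9 are the gelatinases, Mmp11 is a stromelysin that is activated inside the cell by furin, and Mmp14 is a membrane-bound enzyme that activates pro-Mmp2 with the help of Timp2. Plasmin and its activators are a further route by which proenzymes are activated.

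Of the 7 metalloproteinases, 3 lie in the chromosome 9 cluster, which in the GRCm38.p6 annotation runs in the order Mmp13, Mmp12, Mmp1b, Mmp3, Mmp1a, Mmp10, Mmp8, Mmp27, Mmp20 and Mmp7. Their proximal promoters are shown because at 24 h these 3 genes included both members with the largest log2 ratios at 1 mM MAA (Mmp3 and Mmp10) and both with the lowest at 5 mM MAA (Mmp3 and Mmp13). The sequences are from RefSeq (GRCm38.p6), on the plus strand, 5′ to 3′, and cover the 250 bases before the annotated start, namely chr9:7445572-7445821 for Mmp3, chr9:7502092-7502341 for Mmp10 and chr9:7272264-7272513 for Mmp13. Capitals mark the AP-1 element TGAGTCA, on either strand, and the TATA box TATAAA, which do not overlap.
Mmp3: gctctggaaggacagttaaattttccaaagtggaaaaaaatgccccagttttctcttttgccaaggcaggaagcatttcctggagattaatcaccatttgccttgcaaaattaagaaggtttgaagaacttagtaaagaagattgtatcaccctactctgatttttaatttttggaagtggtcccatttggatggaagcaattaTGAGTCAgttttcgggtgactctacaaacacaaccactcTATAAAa
Mmp10: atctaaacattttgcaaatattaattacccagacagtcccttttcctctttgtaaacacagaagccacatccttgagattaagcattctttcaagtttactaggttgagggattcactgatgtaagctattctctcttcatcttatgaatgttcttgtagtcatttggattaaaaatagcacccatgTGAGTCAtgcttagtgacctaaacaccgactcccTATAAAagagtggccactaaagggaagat
Mmp13: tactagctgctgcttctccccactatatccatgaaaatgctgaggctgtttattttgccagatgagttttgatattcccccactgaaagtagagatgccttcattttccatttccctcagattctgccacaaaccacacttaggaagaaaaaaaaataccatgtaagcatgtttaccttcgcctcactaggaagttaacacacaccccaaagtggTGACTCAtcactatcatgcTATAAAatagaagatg

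The AP-1 element began 46 bases before the start in Mmp3, 63 bases before it in Mmp10 and 35 bases before it in Mmp13, where it read TGACTCA, the reverse complement. The TATA box began 7, 29 and 16 bases before the start. Promoters of 8 of the 10 genes were in the table (Mmp2 and Mmp9 were missing), and these 3 were the only ones of the 8 with either motif. Over 32851 mouse promoters of the same length, searched on both strands, 4.46% held TGAGTCA, 12.4% held TATAAA and 0.721% held both. The GC box GGGCGG, which 32.7% of promoters held, was present in the promoters of Mmp11, Mmp14, Timp1, Timp2 and Timp3 and in none of the 3 cluster genes. The ETS core AGGAAG (29.5% of promoters) was present in Mmp3, Mmp13, Mmp14, Timp1 and Timp3. These matches describe the letters in a window and say nothing about whether a factor was bound.

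Mmp3, stromelysin-1, degrades proteoglycans, laminin and fibronectin and activates other proenzymes. At 24 h its log2 ratio of MAA over control was 1.58 and 1.49 on the 2 arrays at 1 mM MAA and -2.12 and -1.87 on the 2 arrays at 5 mM MAA. In the processed signals, 1 mM MAA gave 434.7 and 341.4 against 145.8 and 121.9 in untreated cells, and 5 mM MAA gave 37.95 and 42.6 against 165.4 and 155.3. All arrays of 1 concentration thus lay on one side of the control and all arrays of the other on the opposite side, at a mean of 2.89-fold above control at 1 mM and 3.99-fold below it at 5 mM. At 3 h the 1 mM arrays gave -0.03 and -0.13 and the 5 mM arrays -0.23 and -0.12, which overlapped. At 8 h the 1 mM arrays gave -0.29 and -0.17 and the 5 mM arrays -0.37 and -0.32, all below 0 and close together. Opposite signs were thus seen at 24 h only. The difference of 5 mM minus 1 mM at 24 h was -3.53 on the log2 scale, and -3.70 between the 2 arrays that shared a slide. With normexp background correction and loess it was -1.92, from 0.93 at 1 mM and -0.99 at 5 mM. That setting adds an offset of 50, which by itself draws the ratios of low signals towards 0. The size of the ratios thus depended on the background correction and their directions did not.

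**Figure D1:**
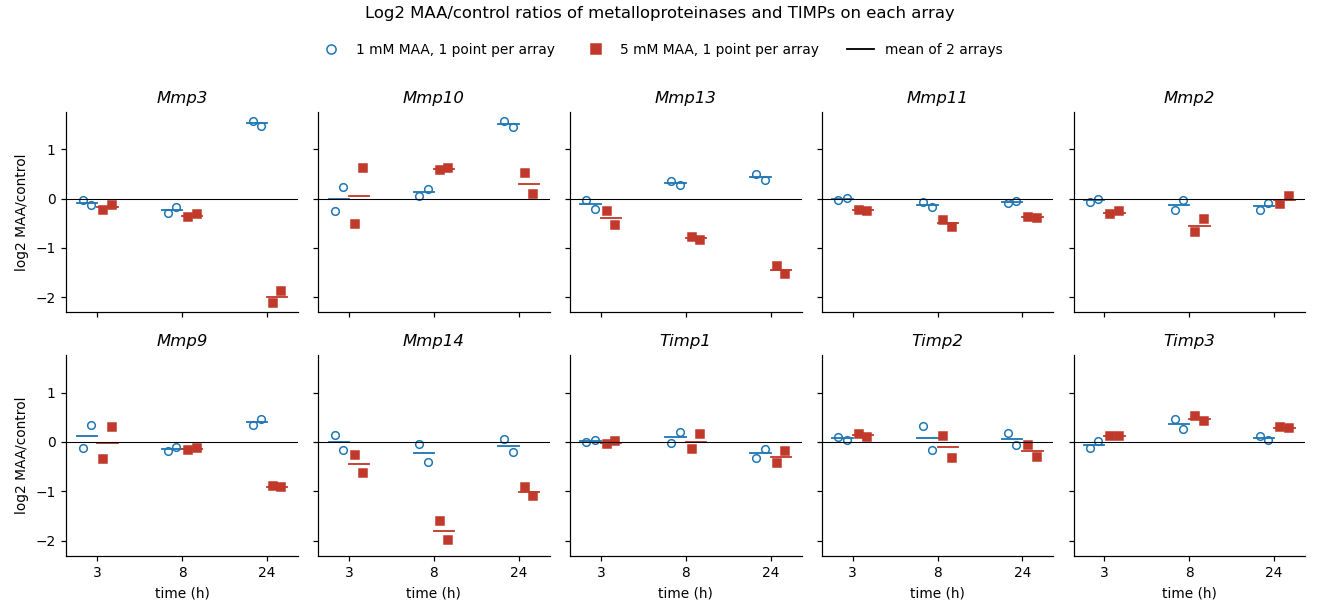
Log2 ratio of MAA over control (y axis) at 3, 8 and 24 h (x axis) for the 10 genes, with open circles for the arrays at 1 mM MAA, filled squares for the arrays at 5 mM MAA and short lines for the mean of 2 arrays. Mmp3 separates at 24 h, with both 1 mM arrays at or above 1.49 and both 5 mM arrays at or below -1.87, while the arrays of Timp1, Timp2 and Timp3 stay between -0.42 and 0.52.

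Among the other 9 genes, a gene was called in limma where its unadjusted p was under 0.005 and its change passed 1.5-fold (1 mM) or 2-fold (5 mM). At 1 mM MAA none of the 9 was called at 3 h or 8 h, where 1.95% and 2.37% of all probes were called in either direction, and 0 and 2 of the 9 had an unadjusted p under 0.05. At 24 h 1 of 9, Mmp10, was called up, beside 3.26% of all probes called up, and none was called down, beside 1.41% of all probes. At 5 mM MAA none of the 9 was called at 3 h, beside 3.76% of all probes called in either direction, although 4 of the 9 had an unadjusted p under 0.05. At 8 h 1 of 9, Mmp14, was called down, beside 2.49% of all probes called down. At 24 h 2 of 9, Mmp13 and Mmp14, were called down, beside 1.77% of all probes called down, and none was called up, beside 3.85% of all probes. The median log2 ratio of the 9 genes at 5 mM was -0.02 at 3 h, -0.14 at 8 h and -0.30 at 24 h, against -0.10, -0.04 and 0.03 over all probes. With 9 genes, shares of this kind are counts of single genes and are read only as such. The share of all probes with an unadjusted p under 0.05 was not taken, so counts at that limit have none beside them.

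Mmp10, stromelysin-2, a close relative of Mmp3 with a similar range of substrates, gave log2 ratios of 1.58 and 1.45 at 1 mM MAA for 24 h. Both arrays were well above those at 5 mM, which gave 0.51 and 0.09. The mean increase at 1 mM was 2.85-fold (log2 1.51, SE 0.25, adjusted p = 0.00929), and at 5 mM the mean of 0.30 did not pass the test (adjusted p = 0.453). The signals were low, at 51.38 and 41.25 with 1 mM MAA against 17.18 and 15.15 in untreated cells. Normexp with loess adds an offset of 50, which by itself draws the ratios of signals this low towards 0. Under it the 1 mM log2 ratio was 0.33 (adjusted p = 0.36) and the call was lost. It was also lost without replicate 1 of that condition. At 3 h the pair of arrays disagreed, with -0.51 and 0.62 at 5 mM and -0.26 and 0.23 at 1 mM, so no direction can be given there. Between concentrations, Mmp10 differed by -1.21 at 24 h (95% interval -2.02 to -0.40, adjusted p = 0.0799), which did not pass the test. It passed without dim probes (adjusted p = 0.0461) and with one or the other of the 5 mM MAA 3 h arrays left out (adjusted p = 0.0198 for each).

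Mmp13, collagenase-3, which cuts fibrillar collagens, had log2 ratios of -1.38 and -1.52 at 5 mM MAA for 24 h and of 0.50 and 0.37 at 1 mM. As for Mmp3, both arrays of one concentration lay below control and both of the other above it. The decrease at 5 mM was 2.73-fold (log2 -1.45, SE 0.09, adjusted p = 4.17e-05), while the 1 mM mean of 0.43 (adjusted p = 0.0225) was below the 1.5-fold limit and was not called. At 8 h the arrays were at -0.77 and -0.83 at 5 mM (adjusted p = 4.17e-04, 1.74-fold, not called) and at 0.35 and 0.27 at 1 mM (adjusted p = 0.0973). Mmp13 was thus apart between the concentrations at 8 h already, by -1.11 (adjusted p = 0.00321), with -1.12 on slide 2 and -1.10 on slide 3. At 24 h the difference was -1.88 (SE 0.13, adjusted p = 8.44e-04). At 3 h it was -0.27 (95% interval -0.56 to 0.03, adjusted p = 0.385).

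The gelatinases behaved unlike each other. Mmp9, which cuts denatured collagen and the collagen of basement membranes, was measured by 2 probes. The brighter probe gave -0.90 and -0.92 at 5 mM MAA for 24 h and 0.35 and 0.47 at 1 mM, with no overlap. Its 5 mM mean of -0.91 (SE 0.15, adjusted p = 0.00322) was under 2-fold and was not called, and its 1 mM mean of 0.41 did not pass the test (adjusted p = 0.139). The dimmer probe gave -0.99 and -1.11 at 5 mM and was called down (2.07-fold, log2 -1.05, adjusted p = 2.6e-04), a call that was lost under normexp and loess at -0.70. The difference between concentrations at 24 h was -1.32 (adjusted p = 0.0123) with the first probe and -1.50 (adjusted p = 0.002) with the second. The first probe's difference lost its call without any 1 of the 4 arrays of 24 h, with an adjusted p of up to 0.0848. At 8 h the difference was 0.00 (95% interval -0.50 to 0.51, adjusted p = 0.999) with the first probe.

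Mmp2, the constitutive gelatinase, stayed within narrower limits. Its log2 ratios ran from -0.67 to 0.06 over the 12 arrays. At 5 mM MAA for 8 h they were -0.67 and -0.42, both below every 1 mM array. The mean there was -0.55 (SE 0.09, adjusted p = 0.00248), a 1.46-fold decrease that was not called, and at 24 h it was -0.03 (adjusted p = 0.835). The difference between concentrations at 8 h was -0.42 (95% interval -0.71 to -0.13, adjusted p = 0.0786), which did not pass the test. It passed with the replicate number (adjusted p = 0.00936) or the slide (adjusted p = 0.0287) as a block, under normexp and loess (adjusted p = 0.0112), with the deposited ratios (adjusted p = 0.0489) and without dim probes (adjusted p = 0.0375).

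Mmp14, the membrane enzyme that activates pro-Mmp2, was the one member called at 8 h. At 5 mM MAA for 8 h its log2 ratios were -1.61 and -1.99, and at 24 h they were -0.92 and -1.11. At 1 mM the arrays lay between -0.41 and 0.15 over all 3 times. The decrease at 5 mM was 3.49-fold at 8 h (log2 -1.80, SE 0.15, adjusted p = 1.15e-04) and 2.02-fold at 24 h (log2 -1.01, adjusted p = 0.00188). The second probe was called down at both times too, at -1.42 (arrays -0.90 and -1.93, adjusted p = 0.00305) and -1.01 (adjusted p = 0.0151). The 24 h decrease lies close to 2-fold, and the brighter probe was at -0.997 under normexp and loess and at -0.996 with the slide as a block, and was not called there. The brighter probe also lost its 24 h call without 5 mM MAA 24 h replicate 2 (-0.92). The second probe lost its 8 h call without 5 mM MAA 8 h replicate 2 (-0.90). It lost its 24 h call under normexp and loess (-0.87), with the slide as a block (-0.85), with the replicate block (adjusted p = 0.0206), with arrays centred on their median (adjusted p = 0.0288), with the 5 mM arrays alone (adjusted p = 0.0589) and without each of 8 of the 12 arrays (adjusted p up to 0.15). The difference between concentrations was -1.58 at 8 h (adjusted p = 0.00575) and -0.93 at 24 h (adjusted p = 0.0392) with the brighter probe. With the second probe it was -1.08 (adjusted p = 0.0938) and -0.80 (adjusted p = 0.217). The 24 h difference of the brighter probe was lost with each array centred on its median (adjusted p = 0.051) and without each of 8 of the 12 arrays (adjusted p up to 0.196).

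Mmp11, which differs from the other stromelysins in its substrates, moved little and in one direction at 5 mM MAA. Its log2 ratios were -0.42 and -0.58 at 8 h and -0.37 and -0.40 at 24 h. The 1 mM arrays lay between -0.18 and 0.02. The means of -0.50 (SE 0.06, adjusted p = 6.65e-04) and -0.38 (adjusted p = 0.00265) amounted to 1.42-fold and 1.30-fold decreases, neither called. The difference between concentrations was -0.38 at 8 h (adjusted p = 0.0341), which lost its call without any 1 of the 12 arrays (adjusted p from 0.0512 to 0.191), and with arrays centred on their median (adjusted p = 0.214). At 24 h it was -0.31 (adjusted p = 0.0754), and it passed with the replicate block (adjusted p = 0.0304), with the deposited ratios (adjusted p = 0.014) and without dim probes (adjusted p = 0.0282).

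**Figure D2:**
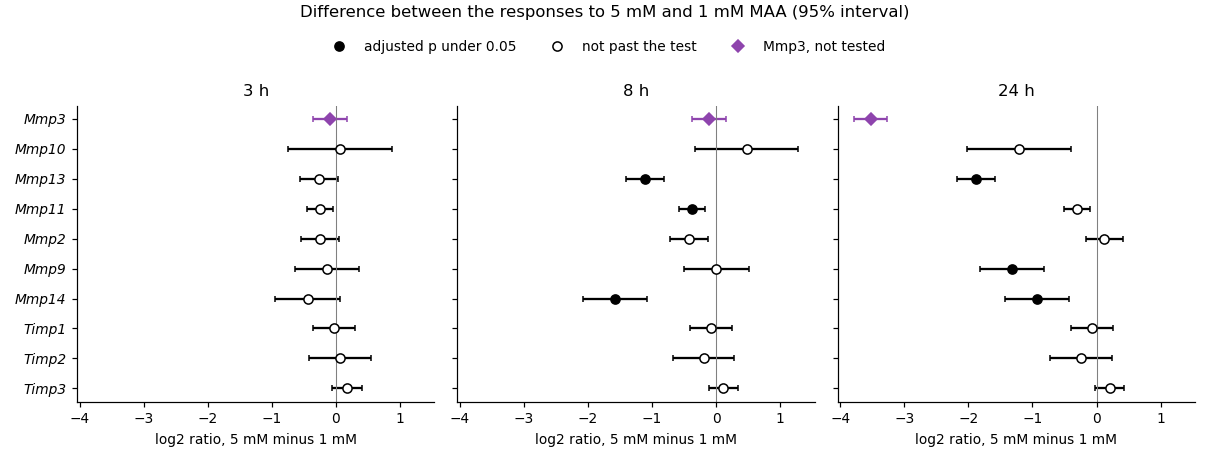
Difference between the log2 ratios at 5 mM and 1 mM MAA (x axis) for each gene (y axis) at 3, 8 and 24 h, with 95% intervals from the limma fit, filled circles for an adjusted p under 0.05, open circles for the rest and a diamond for Mmp3, which was not tested. The values of Mmp3 chose the family, so the interval drawn for it describes the spread between arrays and is not to be read as a test. The tested differences past the threshold all lie below 0, at 8 h for Mmp11, Mmp13 and Mmp14 and at 24 h for Mmp9, Mmp13 and Mmp14.

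The concentrations differed for none of the 9 genes at 3 h, beside 3.4% of all probes in either direction, with 1 gene (Mmp11) at an unadjusted p under 0.05. They differed for 3 of 9 at 8 h, all lower at 5 mM, beside 5.27% of all probes. At 24 h they differed again for 3 of 9, all lower at 5 mM, beside 4.37% of all probes. Mmp13 and Mmp14 passed at both times. The median difference of the 6 tested metalloproteinases was -0.40 at 8 h and -1.07 at 24 h, against -0.03 and 0.05 over all probes. The change of the response between 24 h and 3 h at 5 mM passed the test for 2 of 9 genes, beside 7.42% of all probes that fell, with -1.06 for Mmp13 (adjusted p = 0.00211) and -0.89 for Mmp9 (adjusted p = 0.0309). At 1 mM it passed for none of the 9, beside 1.85% of all probes in either direction, with Mmp10 and Mmp13 at an unadjusted p under 0.05.

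No inhibitor was called. Of the 18 values of Timp1, Timp2 and Timp3 in the 6 conditions none passed the rule for a call in limma and 4 had an unadjusted p under 0.05. None of their 9 differences between concentrations had an unadjusted p under 0.05. At 5 mM for 24 h 3.85% of all probes were called up and 1.77% down. No call among 3 genes is near such shares. For Timp1, a secreted inhibitor of most metalloproteinases, 3 probes gave means of -0.30, -0.36 and -0.35 at 5 mM MAA for 24 h (adjusted p = 0.0567, 0.00569 and 0.00526), which are 1.23-fold to 1.28-fold decreases. The same probes gave -0.23, -0.19 and -0.20 at 1 mM, so the difference for the brightest was -0.07 (95% interval -0.40 to 0.26). Timp2, which takes part in the activation of pro-Mmp2 by Mmp14, had means between -0.18 and 0.14 in all conditions, with adjusted p from 0.461 to 0.995. Timp3, the inhibitor that binds to the matrix, was at 0.52 and 0.42 at 5 mM for 8 h and at 0.46 and 0.26 at 1 mM for 8 h. These means of 0.47 (1.39-fold, adjusted p = 0.00166) and 0.36 (1.28-fold, adjusted p = 0.0303) were not called. At 24 h Timp3 was at 0.29 at 5 mM (adjusted p = 0.0169) and 0.09 at 1 mM (adjusted p = 0.538), a difference of 0.20 (95% interval -0.03 to 0.44, adjusted p = 0.295).

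Single-channel levels, put on one scale by Aquantile normalization, show where the ratios arose. In untreated cells Mmp3 lay between 9.96 and 10.03 over 4 channels at 3 h (log2 scale, SD 0.03) and had means of 8.08 at 8 h and 6.98 at 24 h, a decrease of 8.10-fold over the period. Cells in 1 mM MAA had a mean of 7.85 at 8 h and of 8.58 at 24 h, so the level there was higher at 24 h than at 8 h by 0.73 and still under that of untreated cells at 3 h, at a difference of -1.42. In 5 mM MAA the level went from 7.72 at 8 h to 4.91 at 24 h. The groups therefore parted after 8 h, when the level in untreated cells was still falling. These are descriptions, since the 4 untreated channels of a time differ in array, dye and slide and may come from the same control pools.

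Mmp10 had the same course in untreated cells, from 7.86 at 3 h to 4.09 at 8 h and 3.80 at 24 h, a decrease of 16.6-fold. In 1 mM MAA its level was 4.43 at 8 h and 5.49 at 24 h, and in 5 mM MAA 4.48 and 3.94. Mmp13 in untreated cells dipped from 9.52 at 3 h to 8.23 at 8 h and stood at 9.72 at 24 h. In 5 mM MAA it was at 7.36 at 8 h and 8.25 at 24 h, so it also climbed after 8 h but from a lower level. Mmp9 was level in untreated cells between 3 h (6.59) and 8 h (6.63) and reached 8.48 at 24 h, 3.73-fold above 3 h. In 5 mM MAA it reached 7.51, above its 3 h level of 6.58 by 0.93, and in 1 mM MAA it reached 8.96. The lower ratio of Mmp9 at 5 mM was thus a smaller increase over time and not a fall.

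Mmp14 in untreated cells rose from 13.49 at 3 h to 14.05 and 14.83, 2.55-fold over the period. In 5 mM MAA it went from 13.05 at 3 h down to 12.28 at 8 h and up to 13.84 at 24 h. The other genes changed less in untreated cells, with 24 h levels above those of 3 h by 0.64 for Mmp2, 0.50 for Mmp11, 0.69 for Timp2 and 0.63 for Timp3, and a difference of -0.68 for Timp1. Levels of different probes cannot be set against each other, so each course is read within its own gene.

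**Figure D3:**
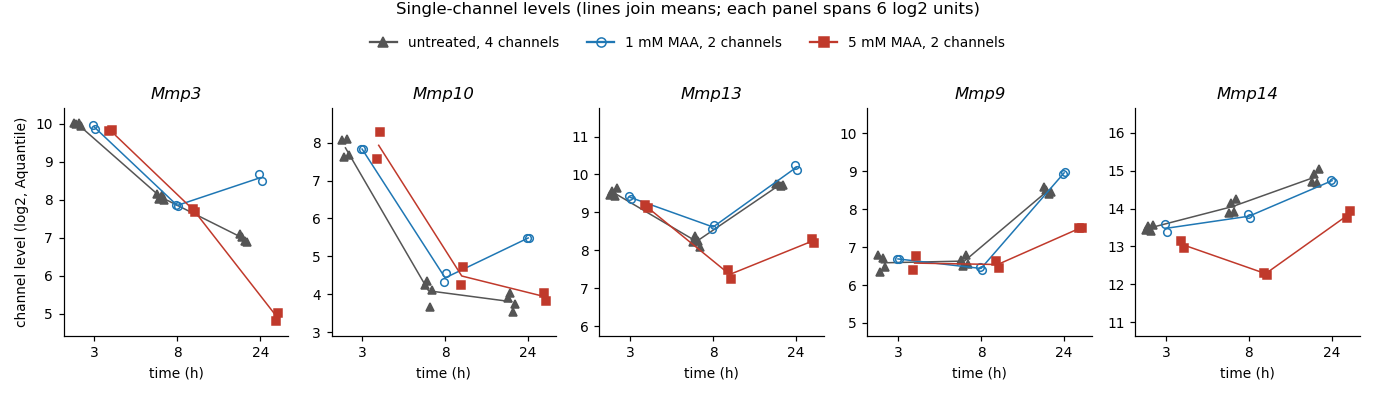
Single-channel level on the log2 scale (y axis, each panel spanning the same number of units) against time (x axis) for 5 genes, with triangles for the 4 untreated channels, open circles for 1 mM MAA and filled squares for 5 mM MAA, and lines joining the means. Mmp3 and Mmp10 fall in untreated cells between 3 h and 24 h while Mmp9 and Mmp14 rise, and the 1 mM and 5 mM levels of Mmp3 part at 24 h, at 8.58 and 4.91.

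The genes whose 12 log2 ratios were most like those of Mmp3, among 1536 genes well above background and called in at least 1 condition, were Cox6a2 (Pearson r 0.98), a subunit of cytochrome c oxidase, Bambi (0.97), a decoy receptor of TGF-beta signalling, Tnc (0.97), the matrix protein tenascin-C, C4b (0.95), a complement component, and Depp1 (0.92). The likeness rests on the 4 arrays at 24 h, since the Mmp3 ratios of the other 8 arrays lay between -0.37 and -0.03. Tnc had mean log2 ratios of 1.14 at 1 mM and -1.41 at 5 mM for 24 h, and C4b had 1.25 and -0.996. Depp1 was below control in all 6 conditions and lowest at 5 mM for 24 h, at -2.29. Of the family members that entered this ranking, Mmp13 ranked 14 (r 0.84), Mmp10 ranked 179 (0.56) and Mmp14 ranked 272 (0.46). Mmp2, Mmp9, Mmp11, Timp1, Timp2 and Timp3 were not called with their brightest probe in any condition. They were therefore not ranked, and their likeness to Mmp3 is not given. The arrays share slides and may share control pools, so these values describe similarity and carry no p.

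**Figure D4:**
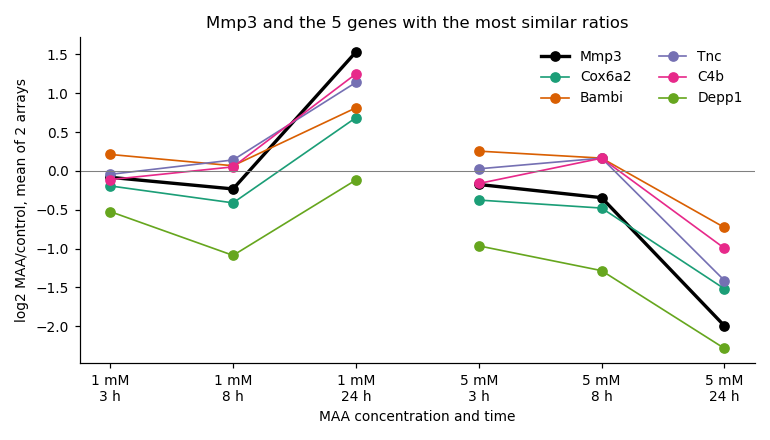
Mean log2 ratio of MAA over control (y axis) in the 6 conditions (x axis) for Mmp3 (thick black line) and the 5 genes with the highest correlation with it over 12 arrays. Mmp3, Cox6a2, Bambi, Tnc and C4b lie above 0 at 1 mM and below 0 at 5 mM for 24 h, while Depp1 lies below 0 at both.

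The rest of the metalloproteinase family was sparser in these cells. Of 17 further genes (Timp4 among them) 14 had a probe and 5 were well above background on all 12 arrays. In the chromosome 9 cluster, 8 of the 10 genes had a probe and only Mmp3, Mmp10 and Mmp13 were well above background on all arrays in both channels. At 5 mM MAA for 24 h 1 of the 14 was called up, beside 3.85% of all probes, and 2 down, beside 1.77%, and the median log2 ratio was 0.07, against 0.03 over all probes. Mmp17, a membrane enzyme with a lipid anchor, rose at 1 mM by 0.81 at 8 h (adjusted p = 0.00697) and 1.18 at 24 h (adjusted p = 7.78e-04), and at 5 mM by 1.59 at 8 h (adjusted p = 3.61e-05) and 1.61 at 24 h (adjusted p = 4.3e-05). Mmp23 fell at 5 mM to a log2 ratio of -1.35 at 8 h (adjusted p = 6.39e-05) and -1.27 at 24 h (adjusted p = 9.43e-05). Mmp19 fell at 24 h at both concentrations, to -0.78 at 1 mM (adjusted p = 0.00115) and -1.30 at 5 mM (adjusted p = 3.1e-05). Mmp12, the macrophage elastase, was called up at 1 mM for 24 h, but it was well above background on 1 array only and in no untreated channel, so the increase is given as at least 1.08-fold. In the same condition the macrophage marker Adgre1 was well above background on both arrays of MAA-treated cells and was at least 3.08-fold higher than in untreated cells. At 5 mM for 24 h Adgre1 was at least 4.03-fold higher, while Cd14 fell to -1.64 (adjusted p = 1.03e-05) and Ptprc, Itgam and Cd163 were not well above background. Over the macrophage list the summed signal lay between 408.9 and 1256 in untreated channels and between 273.9 and 800.3 in MAA channels, nearly all of it from Cd14, which lay between 401.3 and 1239 in untreated channels.

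Markers of other cell types moved in the same conditions. Of the 5 fibroblast markers, Lum fell at 5 mM for 3 h to -1.54 (adjusted p = 5.78e-04) and Dcn at 5 mM for 8 h to -1.24 (adjusted p = 7.49e-04), where Pdgfra and Lum were at -0.97 and -0.94, under 2-fold and not called. The median of the list at 5 mM for 8 h, the time at which Mmp14 was called down, was -0.94, against -0.04 over all probes. At 24 h Lum and Dcn were called up at 1 mM, at 2.29 and 1.08, and Lum was called up at 5 mM, at 1.89, where Dcn and Col1a1 were at -0.57 and -0.70 and not called. Thy1 was called up at 5 mM at 8 h and 24 h, but it was not well above background in any untreated channel. The summed signal of the list lay between 138100 and 365300 in untreated channels and between 133500 and 309000 in MAA channels. Of 7 Sertoli cell markers with a probe, Clu was called up at 8 h and 24 h at both concentrations, by 1.58 and 1.88 at 5 mM. Dhh was called up in all 6 conditions, although it was well above background in the untreated channel of only 2 arrays. At 1 mM for 3 h it was not well above background in the MAA channels either. Sox9 was called up at 3 h, at 0.80 at 1 mM and 1.37 at 5 mM, and Gata1 at 1 mM for 24 h, at 0.94. At 5 mM for 24 h 2 of the 7 were called up, beside 3.85% of all probes, and none down, beside 1.77%. The summed signal of the 7 lay between 1456 and 6230 in untreated channels and between 1742 and 22160 in MAA channels. Most of it in untreated channels came from Clu, which lay between 1281 and 5944 there. Of the Leydig cell markers, Insl3 was called down at 5 mM for 24 h, at -1.11. Cyp11a1 was called up at 24 h at both concentrations, but was not well above background in any untreated channel. At 1 mM for 24 h it was not well above background in the MAA channels either. Of 5 endothelial cell markers 2 (Cdh5 and Vwf) were called up at 5 mM for 24 h, beside 3.85% of all probes. Neither was well above background in the untreated channels of that condition, and Cdh5 was not in the MAA channels either. Of 5 peritubular myoid and smooth muscle markers 1 (Des) was called up there. None was called down in either list, beside 1.77% of all probes. The part of other cell types in these results was not tested.

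Of 23 genes that control activation or are inhibitors of other kinds, 21 had a probe, and their median log2 ratio was 0.0034 at 1 mM and 0.17 at 5 mM for 24 h, against -0.07 and 0.03 over all probes. At 24 h 3 of 21 were called up at 1 mM, beside 3.26% of all probes, and 1 of 21 at 5 mM, beside 3.85%, with none down. Serpinb2, an inhibitor of plasminogen activators, rose at 24 h by 0.76 at 1 mM (adjusted p = 0.00113) and 1.89 at 5 mM (adjusted p = 7.13e-06). Thbs1, thrombospondin-1, rose at 5 mM by 1.16 at 3 h (adjusted p = 1.26e-04) and 1.38 at 8 h (adjusted p = 4.21e-05) and was at 0.37 at 24 h. Reck, a membrane-anchored inhibitor of metalloproteinases, and Thbs2, thrombospondin-2, were called up at 1 mM for 24 h, at 0.65 (adjusted p = 0.00305) and 0.77 (adjusted p = 0.00518), and were at 0.80 and 0.76 at 5 mM, under 2-fold and not called.

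Among 26 ADAM and ADAMTS proteases, relatives with a disintegrin domain, 21 had a probe. Adam12 fell at 5 mM to -2.21 at 8 h (adjusted p = 2.38e-04) and -1.84 at 24 h (adjusted p = 6.37e-04), and Adam8 rose by 1.14 at 24 h (adjusted p = 2.59e-05), the only calls of this list at 5 mM. That is 1 of 21 down at 8 h, beside 2.49% of all probes, and at 24 h 1 up, beside 3.85%, and 1 down, beside 1.77%. The median log2 ratio of the list at 5 mM for 24 h was -0.17, against 0.03 over all probes. At 1 mM Adamts5 alone was called, at 0.59 at 8 h (adjusted p = 0.00885), beside 2.37% of all probes called in either direction.

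Of 18 matrix proteins listed as substrates 17 had a probe, and at 24 h 3 were called up at 1 mM, beside 3.26% of all probes. At 5 mM 2 were called up, beside 3.85%, and 3 down, beside 1.77%. Tnc, as above, was called up at 1 mM (adjusted p = 0.00139) and down at 5 mM (adjusted p = 1.09e-04). Spp1, osteopontin, rose at both, by 0.75 at 1 mM (adjusted p = 0.0353) and 2.24 at 5 mM (adjusted p = 1.04e-04). Bcan, brevican, was the other gene called up at 5 mM but its spots did not rise well above background on these arrays, so no fold is given. Of the fibrillar collagen genes, Col3a1 fell at 5 mM to -1.78 at 8 h (adjusted p = 6.77e-05) and -1.12 at 24 h (adjusted p = 5.91e-04) and Col1a2 to -1.30 at 24 h (adjusted p = 8.11e-04). Lamb1, a laminin chain, was called up at 1 mM at 8 h (0.59, adjusted p = 0.0538) and 24 h (0.68, adjusted p = 0.0221).

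**Figure D5:**
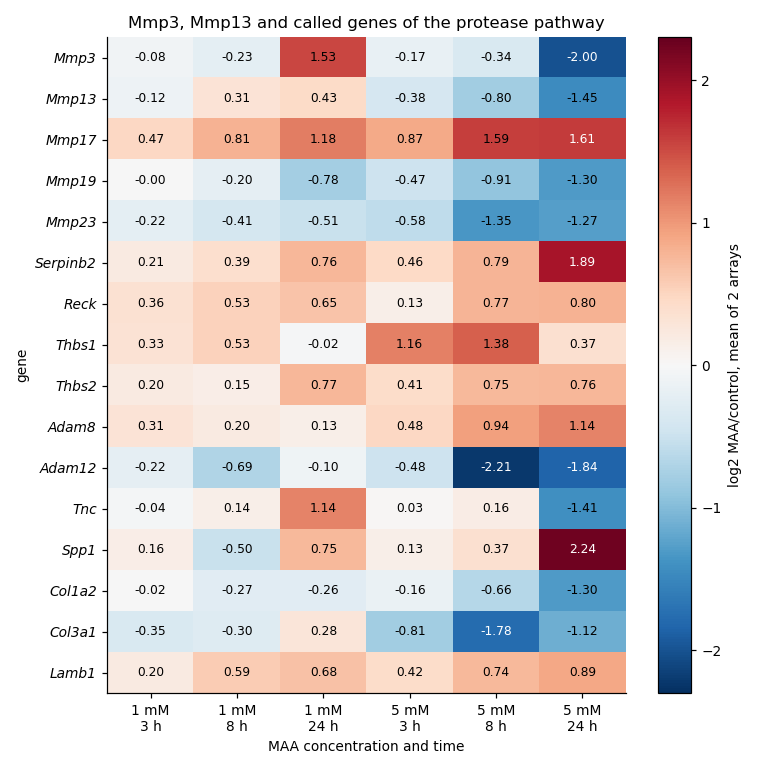
Mean log2 ratio of MAA over control (colour and printed value) in the 6 conditions (columns) for Mmp3, Mmp13 and genes of the pathway lists (rows). Tnc follows Mmp3 in changing sign between the concentrations at 24 h, while Mmp17 and Serpinb2 stay above 0 and Mmp23 and Adam12 stay below 0 in every condition.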

How the data were processed

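RNA of TM3 cells was measured on 12 Agilent two-colour arrays on 3 slides. The authors deposited the output of Feature Extraction 9.5.3.1, in which signal intensity values had been corrected for background and normalized between dyes within the array, and a table of log10 ratios to 2 decimals. Control spots and spots marked as outliers were left out, repeated spots were averaged, and log2 ratios of the processed signals were turned to MAA over control without centring. The name column of the scanner output held accessions, so the genes were found through RefSeq transcript accessions without versions, which named 22072 of 41174 probes (22082 with those whose name column held a symbol). All arrays were fitted together in R 4.3.3 with limma 3.58.1 (lmFit and eBayes, 6 residual degrees of freedom), with Benjamini-Hochberg adjusted p-values over all probes. Differences between concentrations or times were called at an adjusted p under 0.05. A gene is described by its probe with the highest mean signal, and of each pathway list the 2 genes called up with the highest ratios and the 2 called down with the lowest are named, others having been added after their values were seen. The family and the lists were chosen with earlier results of these data known. No member spot was saturated, and all 14 probes were well above background in both channels of all 12 arrays. Arrays carry no counts, so the number of arrays limits the precision, with a median SE of 0.15 on the log2 scale. Figures were drawn with matplotlib 3.10.9. The fit was tested on simulated data. Alternatives were normexp with an offset of 50 and loess, the deposited ratios, median centring, leaving out dim probes, keeping outlier spots, replicate number or slide as a block, single concentrations, other thresholds and leaving out arrays. Genes without a probe (Mmp1b, Mmp25 and Mmp27 among them) were not analysed here. One gene of the list of activators and other inhibitors is not reported here.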

Additional observations from a re-analysis of the deposited data

Results flagged for a closer look

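Mmp3 had opposite signs at the concentrations at 24 h, with both arrays above control at 1 mM and both below it at 5 mM, a difference of -3.53 on the log2 scale that was not tested because it chose the family. Mmp9 (-1.32 at 24 h) and Mmp13 (-1.11 at 8 h and -1.88 at 24 h) likewise had both arrays of one concentration on each side of control, and these differences passed the test. At 5 mM MAA the response changed between 3 h and 24 h by -0.89 for Mmp9 (adjusted p = 0.0309) and by -1.06 for Mmp13 (adjusted p = 0.00211), both lower on 2 of 2 arrays at 24 h than on either array at 3 h.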

How the results depend on the processing

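Of the 13 probes other than that of Mmp3, 4 were called at 5 mM MAA, 1 at 1 mM and 5 differed between concentrations. These counts take the 3 times together. The 4 were the probe of Mmp13, both of Mmp14 and the dimmer of Mmp9, all called down at 24 h, beside 1.77% of all probes. The 1 was that of Mmp10, called up at 24 h, beside 3.26%. The 5 were those of Mmp11 and Mmp13, both of Mmp9 and the brighter of Mmp14. Of these, 3 were lower at 5 mM at 8 h, beside 5.27%, and 4 at 24 h, beside 4.37%. Under normexp and loess the count at 1 mM was 0 and the Mmp3 difference at 24 h was -1.92. Leaving out single arrays gave 3 to 4 probes at 5 mM, 0 to 1 at 1 mM and 3 to 5 with a difference, and the Mmp3 difference ranged from -3.65 to -3.40. The count at 1 mM was 0 without 1 mM MAA 24 h replicate 1, and the count of differences was 3 without either replicate of either 24 h condition. Without both 1 mM 3 h arrays, chosen after seeing the data, the counts were 4, 1 and 4. The replicate number marks the dye orientation and no label links it to cultures, so it was not taken as a pairing of cultures. The correlations of deviations between conditions ran from 0.07 to 0.51, with 14 of 15 over 0.1. Deviations that went with the replicate number were thus shared in part between conditions, and the fit described above does not model them. With the replicate block the counts were 4, 1 and 6, and differences passed the test that did not otherwise for Mmp14 at 3 h (-0.44, adjusted p = 0.0147), Mmp2 at 8 h (adjusted p = 0.00936) and Mmp11 at 24 h (adjusted p = 0.0304). Over all 41174 probes this block gave 4003, 8166 and 7210 differences at 3, 8 and 24 h, against 1399 at 3 h without it. The gains are thus not particular to the family. With the slide as a block the counts were 4, 1 and 6, beside 1756, 6292 and 4570 differences over all probes. Over single probes and conditions, of 2673 values under alternatives 50 lost and 14 gained a call, and no called value changed sign. Another 80 values without a call changed sign, each at most 0.195 in size in the fit described above, and the others kept their direction. Causes were not tested. Low signals limit Mmp10, and 2 arrays a condition limit all values.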
